A study of Mus musculus with 6 samples.

Results

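The Hox genes were examined in the repair tissue of a broken mouse tibia. They were taken as all genes whose symbol on the array annotation is Hoxa, Hoxb, Hoxc or Hoxd followed by a number, read from probe sets that name 1 gene, which gave 33 genes of the 18193 with a symbol of their own. Hox genes that no probe set names alone are not analysed here. The 33 genes had 48 probe sets, and each gene was represented by the one with the highest mean over the 6 arrays. The null mice lacked Cyp24a1, whose enzyme inactivates vitamin D hormone by hydroxylation (genotype Cyp24a1 (-/-), 3 arrays). They were set against littermates that carried 1 disrupted copy (Cyp24a1 (+/-), 3 arrays), so no group in the comparison was wild type. All mice were 12 weeks old, of the background C57BL6J x 129SV mixed, and had the tibia cut and held by a rod in the marrow cavity. Callus, the tissue that bridges the break, was collected on day 14, and its total RNA was hybridised to Affymetrix Mouse 430_2 arrays. Each sample is labelled with a number of its own, which the labels do not say is that of an animal, and they do not say how the allele was disrupted. The p-values therefore rest on the spread among these 6 samples, which may be technical.

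Hox genes encode homeodomain transcription factors that specify position along the body and along the limbs. They stand in clusters on different chromosomes, and within a cluster the order of the genes follows the order of the body regions they pattern, from paralogue number 1 at the head end to number 13 at the tail end. In the mouse limb, paralogues 9 and 10 act mainly in the upper segment, paralogue 11 genes in the middle segment that holds tibia and fibula, and paralogue 13 genes in the foot. Adult connective tissue and bone progenitors are known to retain much of this code, and several HoxA and HoxB genes are also active in blood progenitors.

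Promoters of a gene read above background and of the paralogue 13 gene at the end of the same cluster are shown first, as the 250 bases before the transcription start. Hoxd9 was read above background on all 6 arrays and Hoxd13 on none, and Hoxa11 was on all 6 and Hoxa13 on 3. The sequences come from RefSeq on GRCm38.p6, run 5' to 3' on the strand of the gene, and have each CG dinucleotide in capitals.
Hoxd9, chr2:74697513-74697762, plus strand: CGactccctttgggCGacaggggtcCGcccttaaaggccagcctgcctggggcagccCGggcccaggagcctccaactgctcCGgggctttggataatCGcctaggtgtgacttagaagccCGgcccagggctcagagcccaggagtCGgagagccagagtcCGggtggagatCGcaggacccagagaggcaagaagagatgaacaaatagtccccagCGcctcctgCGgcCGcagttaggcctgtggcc
Hoxd13, chr2:74667975-74668224, plus strand: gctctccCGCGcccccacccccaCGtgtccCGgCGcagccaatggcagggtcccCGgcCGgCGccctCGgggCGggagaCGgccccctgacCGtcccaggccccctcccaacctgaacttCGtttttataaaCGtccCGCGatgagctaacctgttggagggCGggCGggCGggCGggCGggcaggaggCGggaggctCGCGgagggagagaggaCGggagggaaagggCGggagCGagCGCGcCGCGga
Hoxa11, chr6:52245811-52246060, minus strand: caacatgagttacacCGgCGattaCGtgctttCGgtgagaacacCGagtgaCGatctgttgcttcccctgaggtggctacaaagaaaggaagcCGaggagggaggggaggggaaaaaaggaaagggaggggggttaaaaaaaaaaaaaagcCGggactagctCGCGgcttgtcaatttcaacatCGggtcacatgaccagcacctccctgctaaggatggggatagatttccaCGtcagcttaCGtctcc
Hoxa13, chr6:52260881-52261130, minus strand: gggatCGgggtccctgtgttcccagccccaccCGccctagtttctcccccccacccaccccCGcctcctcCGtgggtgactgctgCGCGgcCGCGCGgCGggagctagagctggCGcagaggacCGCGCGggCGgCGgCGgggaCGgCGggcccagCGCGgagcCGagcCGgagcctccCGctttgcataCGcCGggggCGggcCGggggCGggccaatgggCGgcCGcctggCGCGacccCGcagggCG
Hoxd13 had 31 CG dinucleotides in this window and Hoxd9 had 13, while Hoxa13 had 35 and Hoxa11 had 13. This contrast did not extend to the family as a whole. Promoters were given for 19 of the 33 genes, some with 2 starts. The windows of the 11 genes read above background on all arrays had a median of 13 CG (range 3 to 28). Those of the other 8 genes had a median of 12 (range 2 to 35), and all 32851 promoters in the table had a median of 6. The vitamin D response element and the DR5 retinoic acid response element, each searched on both strands as direct repeats of the nuclear receptor half-site, were in 0 of these 21 Hox windows. They were in 0.0396% and 0.0883% of all promoters. The letters TATAAA, on either strand, were in 2 of the 21 windows (Hoxa10 and Hoxd13) and in 12.4% of all promoters. The letters CCAAT, on either strand, were in 11 of the 21 windows, 4 of them of genes read above background, and in 33.8% of all promoters. A match, or its absence, describes the letters of these windows only.

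Levels were set against those of olfactory receptor genes, which are mostly silent outside the nose. The 95th percentile of their 44 probe sets lay between 3.47 and 3.65 on the log2 scale of the 6 arrays, and a Hox gene above it on every array was counted as read above background. This held for 18 of the 33 Hox genes (54.5%), against 69.6% of all genes with a symbol of their own. Probe sets differ in how well they bind their target, so levels of different genes were not ranked. In callus of both genotypes the genes read above background lay in the middle of the number scale. They were 0 of 4 genes numbered 1 or 2, 11 of 15 numbered 3 to 8, 6 of 7 numbered 9 or 10, and 1 of 7 numbered 11 to 13. A gene with several probe sets was represented by its highest and so could pass more easily. Of the 11 genes with more than 1 probe set only Hoxd13 did not pass, and each gene numbered 1 or 2 had a single probe set. The part of probe set number in this pattern was not tested. By cluster they were 7 of 9 HoxA genes, 2 of 9 HoxB genes, 6 of 7 HoxC genes and 3 of 8 HoxD genes. Hoxd10 passed most narrowly, at 3.57 to 3.99. Hoxb2, at 3.27 to 3.86, was above the level on 2 arrays and Hoxa13, at 3.13 to 3.66, on 3. The other 13 genes were below it on all 6.

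**Figure D1:**
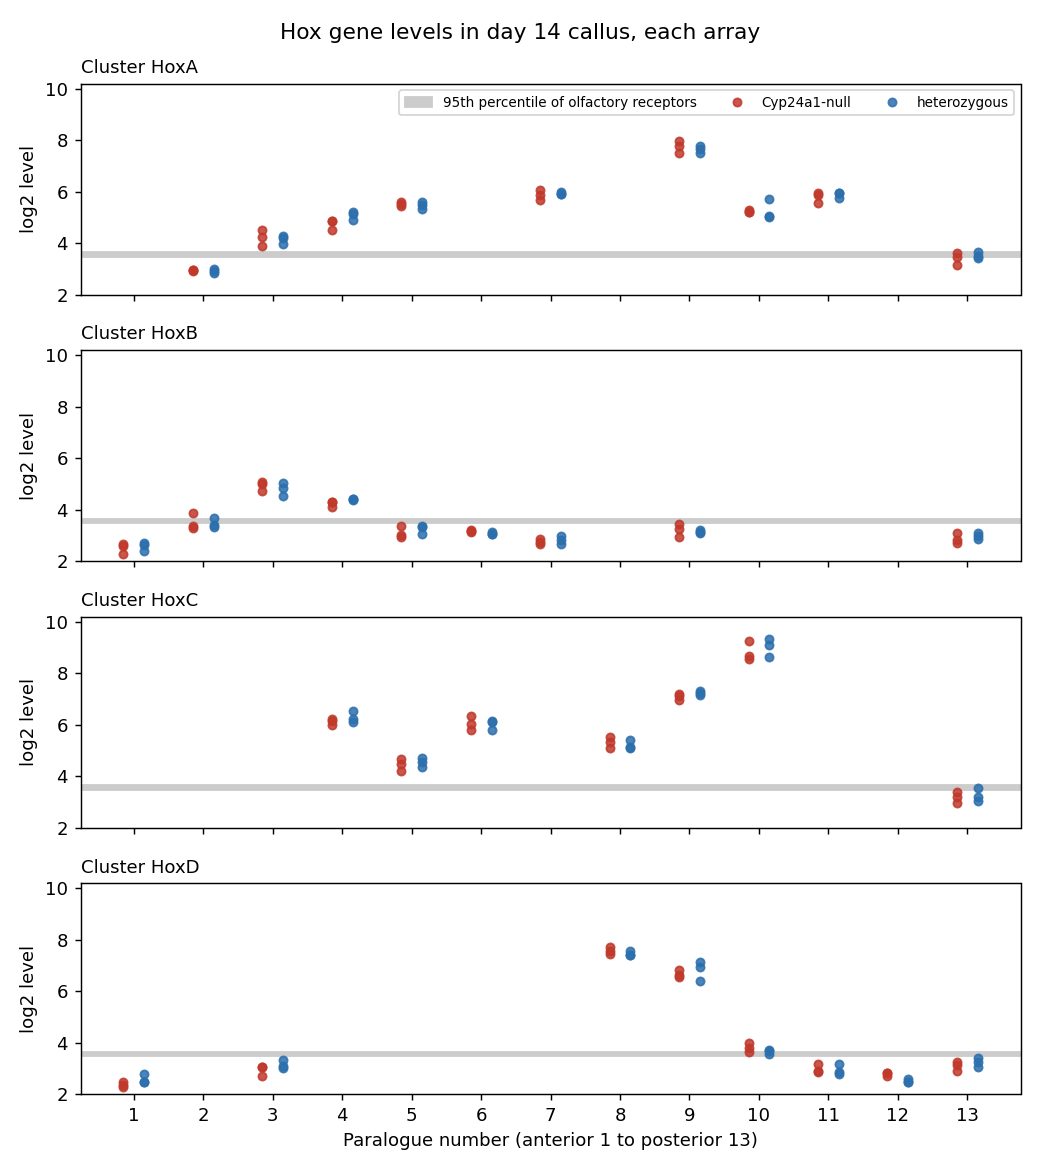
Log2 level of each measured Hox gene (y axis) by paralogue number (x axis), with 1 panel per cluster. Points are single arrays, null on the left and heterozygous on the right of each number, and the grey band spans the olfactory receptor 95th percentiles (3.47 to 3.65). HoxB genes above number 4 lie below the band in both genotypes, as do Hoxd12 and Hoxd13.

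Among the posterior genes, Hoxc10, a hindlimb gene of the paralogue group that patterns the upper segment, read 8.55, 9.25 and 8.69 in null callus, against 9.09, 9.35 and 8.65 in heterozygous callus. The groups overlapped, and the difference of -0.20 (SE 0.25, 95% interval -0.79 to 0.40) was within the spread between arrays. Its paralogue Hoxa10, which also acts in blood progenitors, read 5.28, 5.20 and 5.22 in null callus, against 5.06, 5.0 and 5.72 in heterozygous callus. One heterozygous array stood above the other 5, and the difference was -0.03 (SE 0.20, interval -0.52 to 0.46). Hoxd10 read 3.63, 3.99 and 3.79 in null callus and 3.68, 3.72 and 3.57 in heterozygous callus, just above background throughout. All 3 measured paralogue 10 genes were thus read above background in both groups.

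Hoxa11, needed in the mouse together with its paralogues for the middle limb segment, read 5.93, 5.56 and 5.86 in null callus, against 5.74, 5.96 and 5.96 in heterozygous callus. The ranges overlapped, with a difference of -0.11 (SE 0.14, interval -0.43 to 0.22). Its paralogue Hoxd11 stayed below background on every array, at 2.88 to 3.17 in null callus and 2.80 to 3.16 in heterozygous callus. All 4 paralogue 13 genes were measured: Hoxa13, Hoxb13, Hoxc13 and Hoxd13. None was above background on all arrays. Hoxc13, the Hox gene of hair and nail, read 3.19, 3.40 and 2.96 in null callus, against 3.05, 3.56 and 3.19 in heterozygous callus, below background on all 6. Hoxd13, a gene of the digits, read 2.90 to 3.25 in null callus and 3.04 to 3.41 in heterozygous callus. Hoxd12 was the single Hox gene with an unadjusted p under 0.05, but it read 2.83, 2.83 and 2.72 in null callus and 2.60, 2.48 and 2.49 in heterozygous callus, below background on all 6. Its difference of 0.27 (SE 0.10, limma adjusted p = 0.999) is one between values below background.

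The paralogue 9 genes were read above background in 3 clusters, and not in HoxB. Hoxa9, a gene of the posterior body and of blood progenitors, read 7.52, 7.95 and 7.78 in null callus, against 7.77, 7.49 and 7.65 in heterozygous callus. The difference was 0.11 (SE 0.15), and the second Hoxa9 probe set, also above background, gave -0.12 (SE 0.18), so the gene has no settled sign. Hoxc9 read 7.13, 6.95 and 7.21 in null callus, against 7.16, 7.24 and 7.32 in heterozygous callus, and differed by -0.15 (SE 0.11, interval -0.42 to 0.13). Hoxd9 read 6.82, 6.64 and 6.54 in null callus, against 6.41, 6.93 and 7.14 in heterozygous callus. Its heterozygous arrays were spread more widely (SD 0.38, against 0.14 in null callus, n = 3 each) and enclosed all null values. Hoxb9 read 2.95 to 3.45 in null callus and 3.09 to 3.22 in heterozygous callus, all below background.

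In the middle of the clusters, Hoxd8 read 7.57, 7.45 and 7.74 in null callus, against 7.40, 7.42 and 7.58 in heterozygous callus, and differed by 0.12 (SE 0.12). Both of its probe sets gave this sign. Hoxc8, known for patterning the thoracic skeleton, read 5.35, 5.10 and 5.52 in null callus, against 5.13, 5.11 and 5.42 in heterozygous callus, a difference of 0.11 (SE 0.15). The groups overlapped in both genes. Hoxa7 read 6.07, 5.66 and 5.88 in null callus, against 5.92, 5.99 and 5.91 in heterozygous callus. Hoxc6 read 6.34, 6.04 and 5.79 in null callus, against 5.80, 6.16 and 6.10 in heterozygous callus, and its 3 probe sets, all above background, gave 0.03, -0.02 and -0.09. The probe set that represents Hoxc6 is of the type (x_at) whose probes may also match other sequences. In HoxB the genes Hoxb5, Hoxb6, Hoxb7 and Hoxb9 were all below background, at 2.67 to 3.45 in null callus and 2.67 to 3.36 in heterozygous callus.

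Of the anterior genes, Hoxa5, which patterns the neck and shoulder region, read 5.53, 5.44 and 5.61 in null callus, against 5.31, 5.48 and 5.61 in heterozygous callus. Hoxc5 read 4.49, 4.67 and 4.21 in null callus, against 4.55, 4.69 and 4.36 in heterozygous callus. Neither gene separated the groups, with differences of 0.06 (SE 0.12) and -0.08 (SE 0.16). Hoxa3, which patterns the pharyngeal region, read 3.90, 4.52 and 4.25 in null callus, against 4.20, 3.96 and 4.29 in heterozygous callus. Hoxb3 read 4.71, 4.98 and 5.08 in null callus, against 4.85, 5.03 and 4.52 in heterozygous callus. Both overlapped between groups, and 2 of the 4 Hoxa3 probe sets were below background. Hoxa2 and Hoxb1, genes of the hindbrain and pharyngeal arches, were below background, at 2.91 to 2.96 and 2.29 to 2.68 in null callus and at 2.85 to 2.98 and 2.39 to 2.71 in heterozygous callus.

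The paralogue 4 genes held the lowest unadjusted p among the Hox genes read above background. Hoxa4 read 4.87, 4.49 and 4.84 in null callus, against 5.19, 4.89 and 5.15 in heterozygous callus, so that every null value lay below every heterozygous value. The difference was -0.35 (SE 0.15, interval -0.71 to 0.01), and it did not pass (limma adjusted p = 0.999). Hoxb4, a regulator of blood stem cells, read 4.30, 4.10 and 4.31 in null callus, against 4.37, 4.41 and 4.43 in heterozygous callus, again without overlap. Its difference was -0.17 (SE 0.10, adjusted p = 0.999), while its second probe set, below background, gave 0.04. Hoxc4 read 6.00, 6.15 and 6.23 in null callus, against 6.52, 6.23 and 6.11 in heterozygous callus. Its groups overlapped, with a difference of -0.16 (SE 0.14). For Hoxa4 and Hoxb4 the two-sided exact permutation p was 0.1, the smallest that 3 against 3 arrays allow.

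Across the family, 0 of 33 Hox genes had a limma adjusted p under 0.05, and so did 0 of all 45037 probe sets (0% called). An unadjusted p under 0.05 was reached by 1 of 33 Hox genes, against 3.69% of all probe sets and 4.49% of genes with 1 probe set each. Split by direction, 1 Hox gene was higher and 0 lower, against 1.63% and 2.06% of all probe sets. The groups did not overlap in 4 Hox genes (Hoxa4, Hoxb4, Hoxb6 and Hoxd12), or 12.1%, against 8.95% of all probe sets and 10.1% of genes, and 19 of 33 (57.6%) were lower in null callus, against 52% of all probe sets and 50.3% of genes. These shares lie near those of all features and are no result about Hox genes. The median difference was -0.065 over the Hox genes and -0.008 over all probe sets. The intervals are those of array values, in which differences of weakly expressed genes, such as Hoxd10, Hoxa3 and Hoxb4, are compressed. For the 18 genes read above background the 95% intervals lay between -0.79 and 0.54, so a difference in array value of more than 1.73-fold down or 1.45-fold up lay outside the interval of each of them. For 12 of them the interval lay within 0.5 on the log2 scale in both directions.

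**Figure D2:**
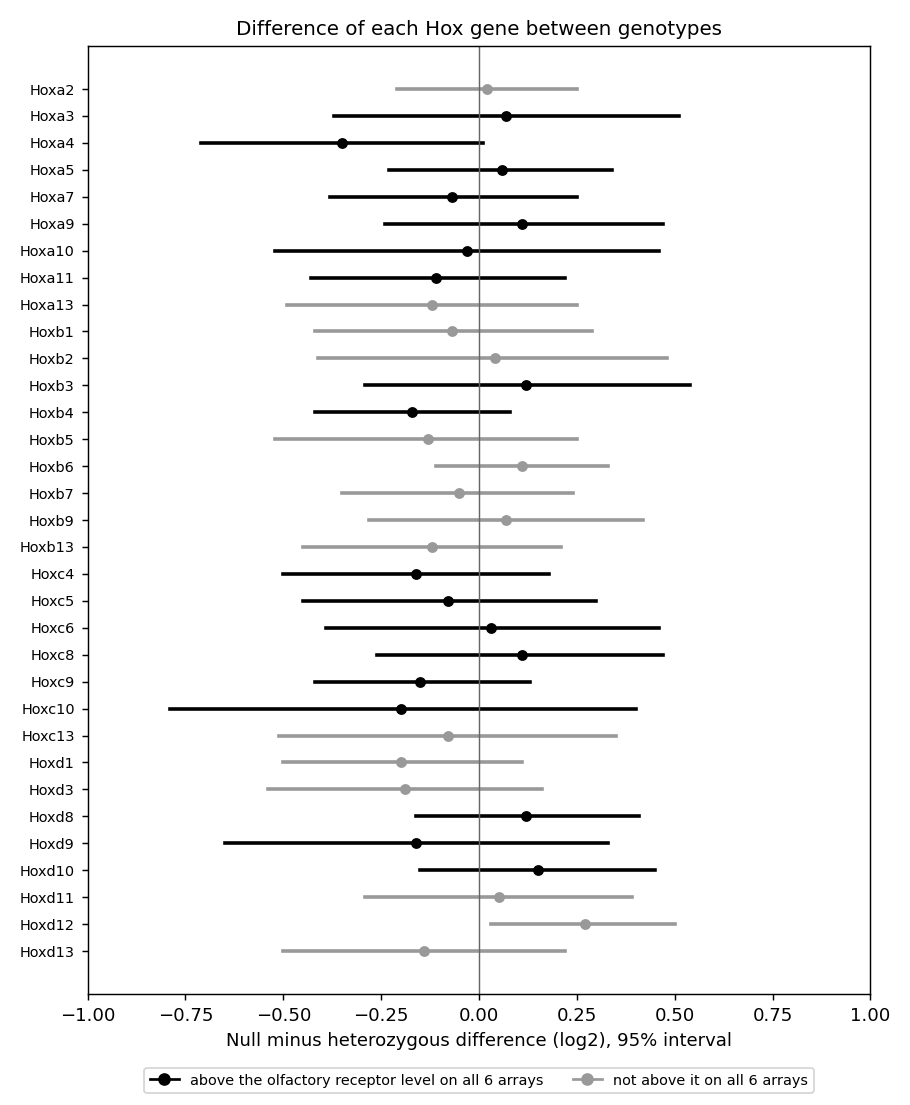
Null minus heterozygous difference of each Hox gene (x axis, log2) with its 95% interval from limma, genes in order of cluster and number (y axis). Black marks the 18 genes read above background and grey the other 15. Every black interval includes 0, and the interval of Hoxa4 ends at 0.01.

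The spread of each Hox gene from array to array was compared with that of other genes. The range over the 6 arrays of the 18 genes read above background had a median of 0.47, the smallest being 0.298 (Hoxa5) and the largest 0.801 (Hoxc10). Other probe sets above background on all arrays (26281) had a median range of 0.626, and 33.6% of them had a range above that of Hoxc10. Over the same arrays the levels of neutrophil and erythroid markers, called marrow markers below, varied widely. The neutrophil and granulocyte precursor markers (13 of 16 measured) deviated by -2.85, 1.88 and 1.25 on the null arrays and by 1.5, 1.46 and -3.24 on the heterozygous arrays. The erythroid markers (9 of 12 measured) deviated by -3.03, 1.80 and 0.82 and by 1.49, 1.51 and -2.59. Both lists were lowest on null replicate 1 and heterozygous replicate 3. The haematopoietic progenitor markers (11 of 12 measured) were also lowest there, but deviated less. They gave -0.5, 0.4 and 0.16 on the null arrays and 0.25, 0.24 and -0.56 on the heterozygous arrays. The B cell markers (9 of 10 measured) gave -0.03, 0.2 and 0.02 and -0.04, 0.01 and -0.16. In bulk tissue, fewer cells of a type and less RNA per cell cannot be told apart.

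These 2 arrays gave the 2 lowest values for 4 of the 18 Hox genes (Hoxb3, Hoxc4, Hoxc10 and Hoxd10) and the 2 highest for 1 (Hoxa10), against 16.4% and 21.2% of the other probe sets above background. The part of marrow in these values was not tested. Without both arrays the Hoxa4 and Hoxb4 differences kept their sign, and no Hox gene reached an unadjusted p under 0.05. The labelled tissue was borne out by its markers, with the bone collagen gene Col1a1 at 13.73 to 14.14 in null and 13.57 to 14.28 in heterozygous callus and the bone sialoprotein gene Ibsp at 9.46 to 9.84 and 10.01 to 10.44. Ibsp did not overlap between groups, as held for 10.1% of all genes. Of 10 osteoblast and osteocyte markers, 8 were lower in null callus, while 50.3% of all genes were lower. Among these markers, 2 reached an unadjusted p under 0.05, against 4.49% of all genes, and 0 passed after adjustment. Their part in the Hox values was not tested. The actin gene Acta1 of skeletal muscle, at 14.39 to 14.46 and 14.43 to 14.49 in the same order, was read in every sample, so the Hox levels are those of a mixed tissue. Which of these cells carried each Hox transcript was not tested.

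**Figure D3:**
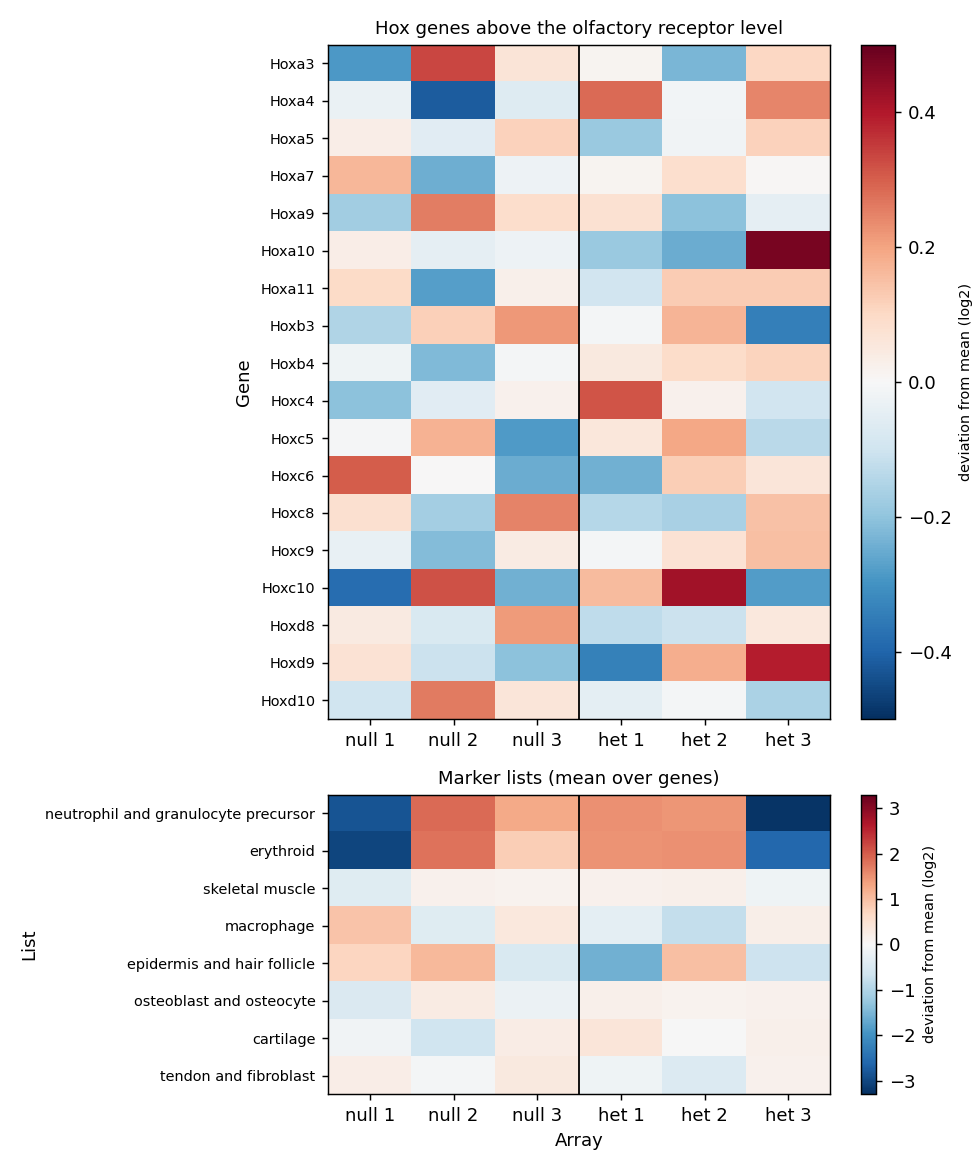
Deviation from the mean over 6 arrays (colour, log2) of the 18 Hox genes read above background (upper panel, scale of 0.5) and of 8 marker lists (lower panel, scale of 3.3), with null arrays left of the line and heterozygous arrays right of it. The marrow lists fall on null 1 and het 3, and no column of the Hox panel is of one colour.

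Non-coding transcripts of the clusters were measured for 3 genes. Hoxa11os, the antisense transcript of Hoxa11, read 4.84, 4.16 and 4.85 in null callus, against 4.25, 4.36 and 4.89 in heterozygous callus, and its difference was 0.11 (SE 0.25). Hoxd3os1, of the HoxD cluster, read 6.15, 6.15 and 6.36 in null callus, against 6.17, 5.77 and 6.68 in heterozygous callus. Hoxd3os1 was well above background. The probe set that names Hoxd3 alone, at 2.72 to 3.07 in null callus and 3.01 to 3.32 in heterozygous callus, was below. A probe set shared by Hoxd4 and Hoxd3 was above background on all 6 arrays and another was not, so the level of Hoxd3 is not settled. Hoxb5os read 3.74, 3.91 and 3.85 in null callus, against 3.95, 3.53 and 3.85 in heterozygous callus. These values lay near background, and were above it on 5 of the 6 arrays. None of the 3 separated the groups. Hoxa11os and Hoxd3os1 each had a second probe set that stayed below background.

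Genes that set up the limb were examined beside the Hox code. Pitx1 and Tbx4 specify the hindlimb and Tbx5 the forelimb. Pitx1 read 4.53, 4.18 and 4.20 in null callus, against 4.42, 4.20 and 4.35 in heterozygous callus, above background on all arrays. Tbx4 read 6.76, 4.83 and 5.66 in null callus, against 5.35, 4.62 and 6.53 in heterozygous callus. It was above background throughout and highest on null replicate 1 and heterozygous replicate 3, the arrays lowest in marrow markers. Tbx5 was below background on every array, at 3.12 to 3.27 in null callus and 3.16 to 3.38 in heterozygous callus. Both hindlimb genes were therefore read in each genotype and the forelimb gene in neither. The genotype differences were -0.02 (SE 0.14) for Pitx1 and 0.25 (SE 0.63) for Tbx4.

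Of the 36 measured limb identity and patterning genes, 18 were higher and 18 lower in null callus, 0 passed the adjusted test, and 1 (Alx4, lower, and below background on 5 of 6 arrays) had an unadjusted p under 0.05, against 4.49% of all genes. Shox2, a short-stature homeobox gene of the limb, read 6.01, 6.16 and 6.33 in null callus, against 5.88, 5.94 and 5.91 in heterozygous callus. Its groups did not overlap, with a difference of 0.26 (SE 0.11, adjusted p = 0.999). Msx1, a homeobox gene of limb mesenchyme, read 4.83, 4.91 and 5.03 in null callus, against 5.04, 5.22 and 5.11 in heterozygous callus, a difference of -0.20 (SE 0.11, adjusted p = 0.999). En1, a gene of ventral limb ectoderm, differed by -0.40 (SE 0.24) at a level near background. Of the 26 limb genes read above background on all arrays, 10 had their 2 highest values on these 2 arrays and 3 their 2 lowest, against the 21.2% and 16.4% of other probe sets given above.

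Hox proteins bind DNA together with TALE homeodomain cofactors of the Meis, Pbx and Pknox families, and Tgif proteins are relatives that repress transcription. Of 10 measured TALE genes, 2 were higher and 8 lower in null callus, while 50.3% of all genes were lower. An unadjusted p under 0.05 was reached by 0 of the 10, against 4.49% of all genes. The lowest p values belonged to Tgif1 (difference -0.37, SE 0.29), Tgif2 (0.31, SE 0.25), Pknox2 (-0.17, SE 0.14) and Pbx2 (-0.16, SE 0.16). Meis1, the cofactor of Hoxa9 in blood progenitors, read 5.21, 5.55 and 5.07 in null callus, against 5.33, 5.54 and 5.24 in heterozygous callus. Polycomb proteins keep Hox genes silent and trithorax proteins keep them active. The list of these groups, which also held Ctcf, had 25 measured genes. All were above background on all arrays, against 69.6% of all genes. In null callus 16 were higher and 9 lower, while 50.3% of all genes were lower. An unadjusted p under 0.05 was reached by 0 of the 25, against 4.49% of all genes. Ash2l differed by -0.17 (SE 0.11), Ezh1 by -0.22 (SE 0.16), Kmt2a by 0.10 (SE 0.10) and Ctcf by 0.15 (SE 0.18).

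Genes that flank the Hox clusters gave 6 higher and 8 lower of 14 measured, with 0 past the adjusted test. At an unadjusted p under 0.05, 1 (Skap2) was higher and 1 (Evx2) lower, against 1.63% and 2.06% of all probe sets. With 1 probe set per gene the share of all genes was 4.49% in either direction. Evx2, the homeobox gene beside Hoxd13, read 3.77, 3.67 and 3.62 in null callus, against 4.05, 4.01 and 3.97 in heterozygous callus. All its values were slightly above background and the groups did not overlap, with a difference of -0.32 (SE 0.10, limma adjusted p = 0.999). On null replicates 2 and 3 its values lay under the 99th percentile of olfactory receptors (4 and 3.94). The neighbours of Evx2, Hoxd13 and Hoxd12, were below background. Skap2, an adaptor gene of leukocytes beside the HoxA cluster, read 8.12, 8.09 and 7.86 in null callus, against 7.85, 7.35 and 7.64 in heterozygous callus. All 3 of its probe sets were higher in null callus, the chosen one by 0.41 (SE 0.16, limma adjusted p = 0.999). The 10 macrophage markers were all higher in null callus. Without adjustment 3 had a p under 0.05, and with it 0 did. Of all genes, 4.49% had such an unadjusted p and 50.3% were lower in null callus. As a list they deviated by 0.94, -0.39 and 0.35 on null arrays and by -0.32, -0.79 and 0.20 on heterozygous arrays, and their part in the Skap2 values was not tested. Ttll6 differed by -0.24 (SE 0.10) and Hnrnpa1 by 0.17 (SE 0.11).

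**Figure D4:**
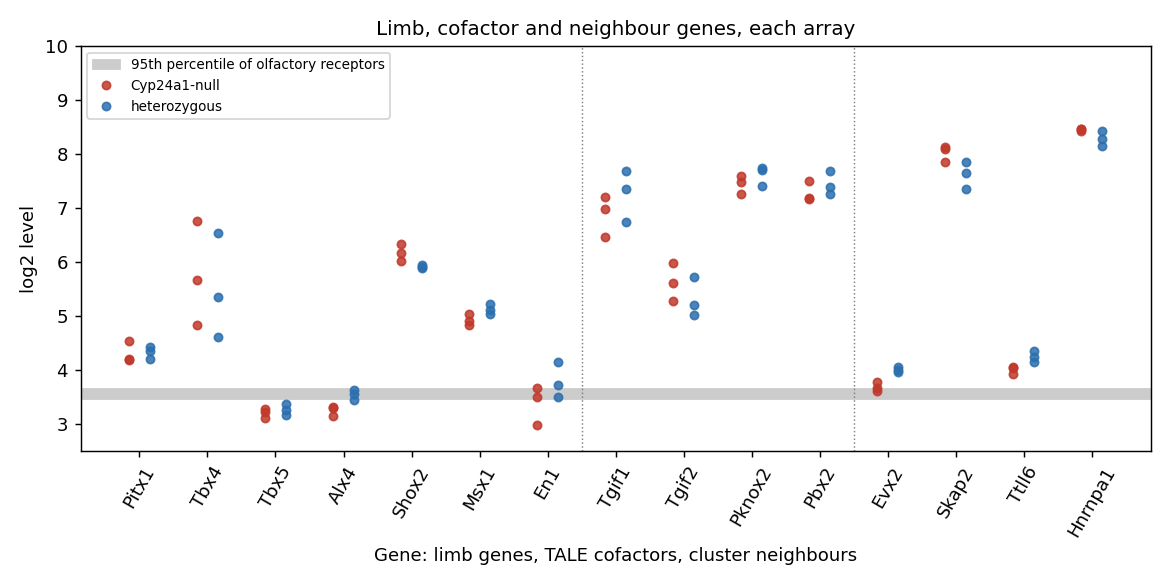
Log2 level (y axis) of limb genes, TALE cofactors and genes beside the Hox clusters (x axis, parted by dotted lines), 1 point per array, null left and heterozygous right, with the olfactory receptor 95th percentiles (3.47 to 3.65) as a grey band. Tbx4 spans 4.62 to 6.76 and Tbx5 lies below the band. The groups do not overlap in Alx4, Shox2, Msx1, Evx2, Skap2, Ttll6 and Hnrnpa1, genes shown for their low unadjusted p. Of all genes, 10.1% show no overlap.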

How the data were processed

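Total RNA of callus was hybridised to 6 Affymetrix Mouse 430_2 arrays, per the labels' protocols. The values deposited were taken from their range (1.65 to 14.49) to be log2. The sources used here do not name the software, summarisation or normalisation behind them. Array medians lay between 4.55 and 4.59 and Pearson's r of any pair of arrays, over probe sets, between 0.97 and 0.991. Scaling of this kind hides a shift common to all genes, and differences of weakly expressed genes are compressed.

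Of 45101 probe sets, 64 controls were left out. The platform annotation gave 1 symbol to 34945 probe sets, several to 932 and none to 9160. All 45037 were tested in R 4.3.3 by limma 3.58.1 (linear model with moderated variances, null minus heterozygous, two-sided, Benjamini-Hochberg over all of them, threshold 0.05), which left 4 residual degrees of freedom. Intervals are limma's at 95% and not adjusted for the number of genes. The number of arrays limits the precision. The script was tested on simulated data.

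The Hox genes, the lists and the tests were chosen with earlier results of these data known. Values are given in full for Hox genes above the olfactory receptor level on all 3 arrays of a group, and in the other lists for up to 4 genes with the lowest unadjusted p besides Pitx1, Tbx4 and Tbx5. Hoxd12, Hoxc13, the tissue marker genes, Meis1 and the values of other Hox genes below background were chosen after they were seen.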

Additional observations from a re-analysis of the deposited data

How the results depend on the processing

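No paired analysis was possible because the labels give no replicate numbers that the groups share. Of the 18 Hox genes read above background, 10 kept the sign of their difference under every alternative fitted for them, at most 16. Alternatives that changed only the variance or the set of probe sets tested left the difference as it was, so its sign could not turn there. Hoxa3, Hoxb4, Hoxc5 and Hoxd10 were not among the probe sets above the median level. The lowest limma adjusted p any of the 18 reached was 0.462. The count of all probe sets at an adjusted p under 0.05 was 0 under each alternative except with a marrow score as covariate, added after the data were seen, where it was 1, a probe set with no symbol listed.

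The count of Hox genes at an unadjusted p under 0.05 (1) was 2 with quantile, cyclic loess or median scaling, with the plain test with equal variances and with the marrow score. It was 0 with probe sets above the median level, over the 18 genes alone and without null replicate 1 and heterozygous replicate 3 together. It was 0 to 1 with each array left out (0 when null replicate 2 or heterozygous replicate 3 was left out). The unadjusted limma p of Hoxa4 was 0.0549 and moved to either side of 0.05. It was 0.0462 with quantile, 0.0432 with cyclic loess and 0.0435 with median scaling. With array weights it was 0.024, and with the intensity trend and robust prior 0.0814. Leaving out each array gave 0.0338 (heterozygous replicate 2) to 0.162 (null replicate 2). The Hox median of -0.065 ran from -0.059 to -0.023 with each array left out, with -0.024 when null replicate 3 and -0.023 when heterozygous replicate 2 was left out. Over all probe sets the unadjusted count of 1660 was 4631 with array weights and 3510 with the marrow score. It was 3453 without null replicate 1 and heterozygous replicate 3 together. It was 746 above the median level and 771 with 1 probe set per gene, the last 2 testing fewer. It ran from 1048 (without null replicate 3) to 2721 (without heterozygous replicate 3), with 1062 without heterozygous replicate 1. The cause was not tested for the others.

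Among those that kept their sign, leaving out each array gave -0.444 to -0.229 for Hoxa4, -0.207 to -0.104 for Hoxb4, 0.013 to 0.229 for Hoxa9, -0.247 to -0.04 for Hoxc4, 0.006 to 0.217 for Hoxc8, -0.203 to -0.073 for Hoxc9, -0.407 to -0.038 for Hoxc10, 0.044 to 0.188 for Hoxd8, -0.371 to -0.006 for Hoxd9 and 0.056 to 0.238 for Hoxd10. Signs of small differences turned with single arrays, over the ranges -0.076 to 0.232 for Hoxa3, -0.021 to 0.128 for Hoxa5, -0.166 to 0.04 for Hoxa7, -0.16 to 0.199 for Hoxa10, -0.178 to 0.004 for Hoxa11, -0.018 to 0.239 for Hoxb3, -0.184 to 0.047 for Hoxc5 and -0.108 to 0.168 for Hoxc6. The ranges were -0.132 to 0.041 for Pitx1, -0.258 to 0.763 for Tbx4, -0.012 to 0.343 for Hoxa11os, -0.068 to 0.14 for Hoxb5os and -0.205 to 0.251 for Hoxd3os1. With array weights Hoxa10 gave 0.077 and Hoxb5os -0.001. Without null replicate 1 and heterozygous replicate 3 together Hoxa10 gave 0.174, Hoxc6 -0.068 and Tbx5 0.039. Hoxd3os1 gave -0.023 with quantile, -0.004 with cyclic loess and -0.005 with median scaling. The count of 18 Hox genes read above background was 18 with the 90th percentile or each array left out, and 16 with the 99th percentile (Hoxa3 and Hoxd10 not above it) or with the mean of each gene's probe sets (Hoxa3 and Hoxa4 not above it).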

Other observations

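Retinoic acid is a known regulator of anterior Hox genes and of the proximal limb, and genes of its synthesis, breakdown and sensing were read above background on all 6 arrays. These genes were picked from the limb list after their values were seen. Aldh1a2, which makes retinoic acid, read 9.0, 7.42 and 7.70 in null callus, against 7.82, 7.24 and 7.99 in heterozygous callus. Cyp26b1, which degrades it, read 7.41, 5.68 and 5.99 in null callus, against 5.52, 5.75 and 6.31 in heterozygous callus. Both were highest on null replicate 1 and heterozygous replicate 3, the arrays lowest in marrow markers, and neither separated the groups, with differences of 0.36 (SE 0.43) and 0.50 (SE 0.47). The receptor gene Rarb read 5.91, 6.62 and 6.44 in null callus, against 6.32, 6.31 and 6.55 in heterozygous callus.

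Transcription factors of limb mesenchyme from the same list differed in their pattern over the arrays. Prrx1 read 9.80, 9.51 and 9.67 in null callus, against 9.73, 9.19 and 9.75 in heterozygous callus. Prrx2 read 8.09, 6.41 and 6.81 in null callus, against 6.49, 6.26 and 7.40 in heterozygous callus. Tbx15 ran the other way, at 8.77, 9.59 and 9.65 in null callus, against 9.14, 9.62 and 9.0 in heterozygous callus, and Hoxc10 also had its lowest values on those 2 arrays. The skeletal muscle markers deviated by -0.40, 0.14 and 0.11 on null arrays and by 0.13, 0.17 and -0.15 on heterozygous arrays, and the part of muscle in the Tbx15 and Hoxc10 values was not tested.

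Of the probe sets that name 2 Hox genes, left out above, the one shared by Hoxd4 and Hoxd3 that was above background read 3.78, 4.20 and 3.93 in null callus, against 4.12, 3.84 and 3.86 in heterozygous callus. The one shared by Hoxb8 and Hoxb7 was below background on all arrays, at 3.16 to 3.26 in null callus and 2.67 to 3.24 in heterozygous callus.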
